A study of Homo sapiens with 19 samples.

Results

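The transcriptomes of H1 cells lacking SUZ12 and of H1 cells lacking EED were compared. Both proteins are core subunits of polycomb repressive complex 2 (PRC2), and the comparison asks how the states of 2 lines that have lost the same complex differ. H1 is an established human embryonic stem cell (hESC) line, and 4 of the 19 RNA-seq samples of the series enter the comparison, 2 of SUZ12-/- H1 and 2 of EED-/- H1 cells, chosen by their labelled genotype. The genes compared were the 17479 of 33382 that reached a TPM of 1 in no fewer than 2 of these 4 samples. TPM, transcripts per 1e6, gives a gene's share of all transcripts after correction for length, so levels can also be compared between genes. In both lines a critical domain of the gene was deleted on both alleles with CRISPR/Cas9 and a donor carrying a drug-resistance cassette, and cells were grown on Matrigel in mTeSR1 medium, without a differentiation treatment. The titles of the 2 samples of a line carry different tags, and neither the time in culture nor the number of passages is given. Genotype, clone and culture time therefore cannot be told apart between the lines, and the p-values measure the spread between the 2 samples of each line only. WT H1 cells and the EZH2-/-/EZH1-/- H1 line, which lacks both catalytic subunits of PRC2, have 2 samples each and are given beside the members as reference levels. EZH1-/- and EZH2-/- H1 cells enter only an alternative fit. In an inducible EED knockout H1 line, EED is supplied under doxycycline (DOX), and its sample from day 28 without DOX is cited for H19 only.

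PRC2 methylates lysine 27 of histone H3 through EZH1 or EZH2, and it needs SUZ12 and EED for a stable and active complex. The resulting mark, H3K27me3, covers the silent promoters of developmental regulators in hESCs. It was not measured in these samples; the study states that both lines had lost it. Genes that PRC2 keeps silent include transcription factors of all germ layers, the HOX clusters and the CDKN2A/CDKN2B locus.

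The targeted genes were not called between the lines. SUZ12 was at 22.9 and 20.8 TPM in SUZ12-/- H1 and 25.6 and 21.2 TPM in EED-/- H1 cells, with a log2 difference (SUZ12-/- minus EED-/-, ± SE of the limma estimate, n = 2 per line) of -0.09 ± 0.16, adjusted p = 0.706. EED was at 27.03 and 26.1 TPM in SUZ12-/- H1 and 14.2 and 22.4 TPM in EED-/- H1 cells, with a log2 difference of 0.55 ± 0.24, adjusted p = 0.146. Neither gene was near 0 in the line that carries its deletion, and WT H1 cells had 25.2 and 27.9 TPM of SUZ12 and 17.3 and 21.96 TPM of EED. A gene-level TPM includes the transcript outside the deleted domain, so these values do not check the labels. Below, pairs of TPM are samples 1 and 2 of SUZ12-/- H1 cells against samples 1 and 2 of EED-/- H1 cells. The catalytic subunits were not called either, EZH2 at 16.9 and 13.96 against 18.7 and 33.1 TPM and EZH1 at 12.1 and 13.3 against 17.2 and 11.8 TPM. Of the 12 PRC2 core and accessory subunits, 0 were called, against 2.99% of all genes tested called higher and 1.92% called lower.

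The 2 SUZ12-/- samples were much more alike than the 2 EED-/- samples. On the log2(TPM + 1) scale their values correlated across genes with a Pearson's r of 0.989, against 0.964 for the EED-/- pair and 0.873 to 0.903 between samples of different lines. The median gap between the 2 samples was 0.123 for SUZ12-/- and 0.299 for EED-/- H1 cells, and the gap of the 2 WT H1 samples over the same genes was 0.158. By the other measures the WT H1 pair was slightly closer than the SUZ12-/- pair. Its r was 0.991, and 0.16% of genes were 3-fold apart, against 0.212%. The files of the SUZ12-/- samples were not identical, and single genes such as POU5F1 (91.04 and 47.03 TPM) stood apart, but TPM holds no read counts, so whether they differ by more than sampling noise could not be tested. The median absolute difference between the line means, 0.464, exceeded the gap within either line. The plot of the spread within and between the lines shows this order over the whole range.

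**Figure D1:**
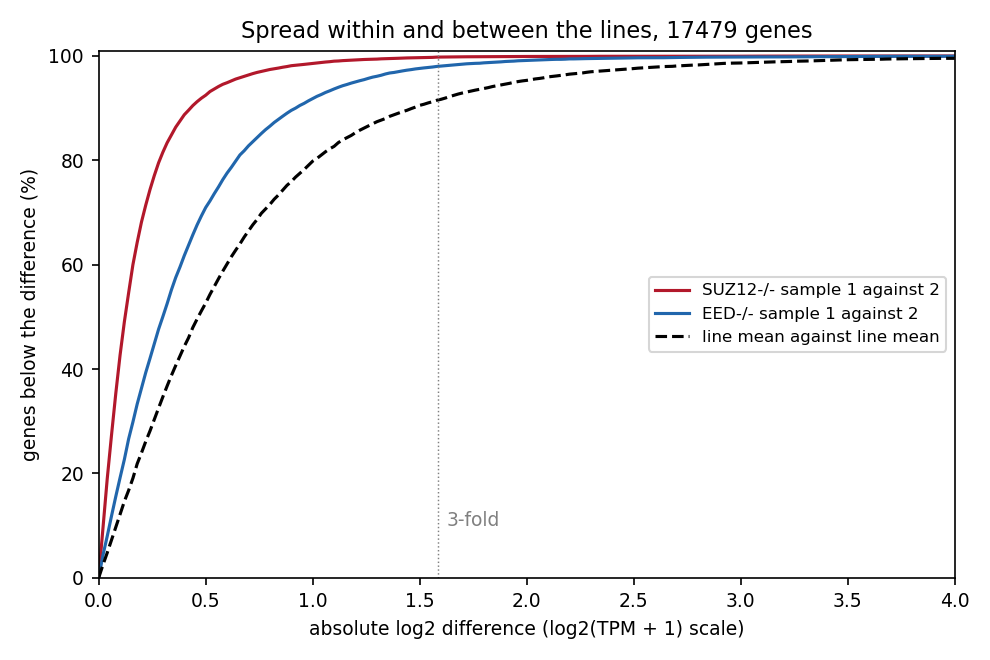
Share of the 17479 genes (y axis, %) below a given absolute log2 difference (x axis, log2(TPM + 1) scale) between the 2 SUZ12-/- samples (red), between the 2 EED-/- samples (blue) and between the line means (black dashes). The SUZ12-/- pair lies above the EED-/- pair throughout, with medians of 0.123 and 0.299, and 0.212% and 1.99% of genes are 3-fold apart within the pairs.

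The linear model of limma on log2(TPM + 1) called a gene at a Benjamini-Hochberg FDR (false discovery rate) of 1% with a change of at least 3-fold. By this rule 522 genes (2.99% of those tested) were higher and 335 (1.92%) lower in SUZ12-/- than in EED-/- H1 cells. In all 857 called genes the 2 samples of one line lay wholly above the 2 of the other, which a call with 2 samples per line all but requires. Such separation was common among all genes tested: both SUZ12-/- samples lay above both EED-/- samples in 26.8% and below both in 44.0%. Among them were 126 genes higher by at least 10-fold and 24 lower by at least 10-fold. The number of calls rests on the closeness of the SUZ12-/- samples: without SUZ12-/- sample 1 or without sample 2, where the spread comes from the EED-/- pair alone, limma called 0 genes in each direction, with 3690 and 3609 genes at an unadjusted p under 0.05. Without EED-/- sample 1 it called 806 higher and 522 lower, and without sample 2, 947 and 891. A count that needs no test gave much the same numbers. Every SUZ12-/- sample was at least 3-fold above every EED-/- sample in 569 genes (3.26%) and at least 3-fold below in 323 (1.85%). The median log2 difference of all genes was -0.15, and all list medians below are to be read against it. The gene lists were chosen with earlier results of these data known, so list counts beside the shares of all genes are descriptions and not tests. Scaling the samples by median ratios moved the median of all genes by 0.188 to 0.03 and gave 608 higher and 230 lower genes, 72.6% higher against 60.9% as deposited. By chromosome the median log2 difference ran from -0.22 on chromosome 5 to -0.105 on chromosome 11, among the 22 autosomes and X.

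**Figure D2:**
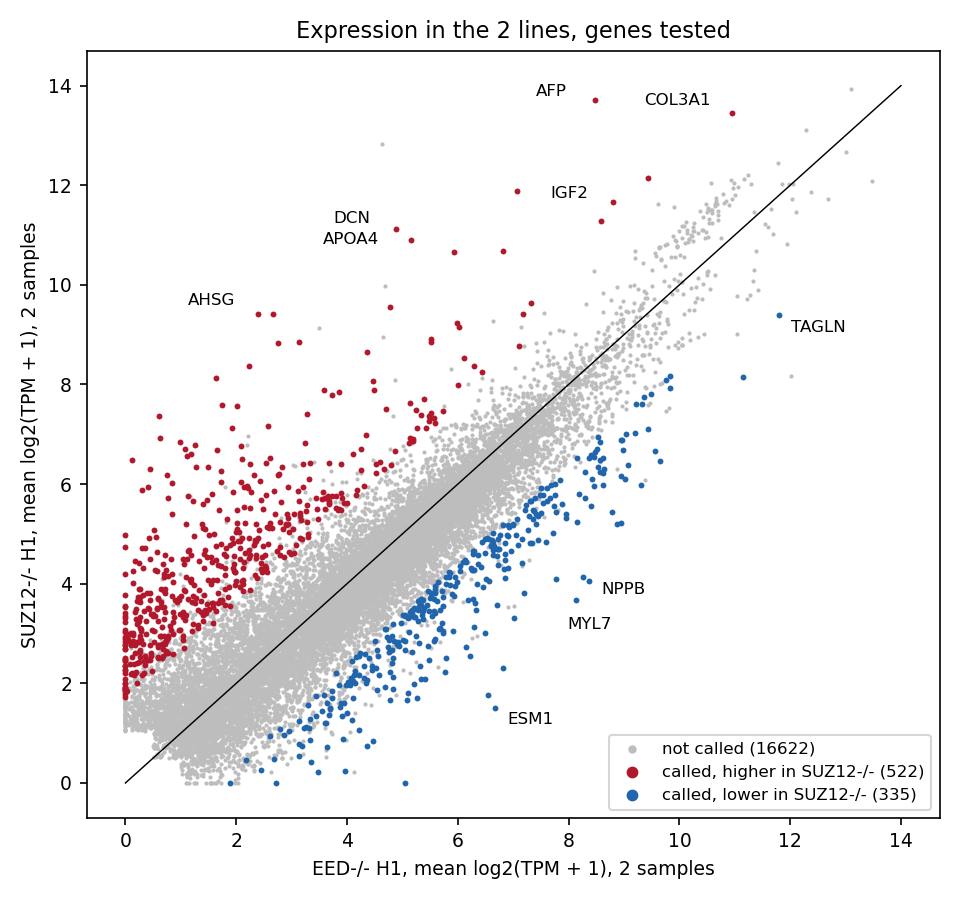
Mean log2(TPM + 1) of the 2 EED-/- samples (x axis) and the 2 SUZ12-/- samples (y axis) for each gene tested. Red points are the 522 genes called higher and blue points the 335 called lower in SUZ12-/- H1 cells, grey points were not called, and the line marks equal expression; AFP and COL3A1 stand at the top and ESM1, MYL7 and NPPB lie farthest below the line among the labelled genes.

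The 15 genes furthest above EED-/- H1 cells included genes of liver, gut, kidney and stroma. AHSG, which encodes the serum glycoprotein fetuin-A, led the order with 673 and 699.57 TPM in SUZ12-/- H1 and 1.08 and 12.4 TPM in EED-/- H1 cells, a log2 difference of 7.02 ± 0.86, adjusted p = 0.00782. MGP, the matrix Gla protein that inhibits calcification and ranked after GNRH2, was at 636 and 724 TPM in SUZ12-/- H1 and 6.79 and 4.21 TPM in EED-/- H1 cells (log2 difference 6.74 ± 0.22, adjusted p = 0.0013). Both SUZ12-/- samples were high and both EED-/- samples low in each case, and the EED-/- samples differed from each other more for AHSG than for MGP. AGT, the serum precursor of angiotensin peptides, was at 194 and 189 TPM in SUZ12-/- H1 and 0.85 and 5.06 TPM in EED-/- H1 cells (log2 difference 5.84 ± 0.56, adjusted p = 0.00442). DCN, a small leucine-rich proteoglycan of fibroblast matrix, reached 2165 and 2287 against 30.9 and 26.3 TPM, and PTGDS, a prostaglandin D synthase, 458 and 452 against 9.64 and 3.32 TPM. FABP1, a fatty acid carrier of liver and intestine, stood at 264 and 291 against 0.53 and 5.26 TPM, and RBP2, a retinol carrier of intestine, at 120.29 and 122 against 0 and 1.37 TPM. HGF, the hepatocyte growth factor made by mesenchyme, was at 73.4 and 82.02 against 0.25 and 0.49 TPM. Among the rest of the 15 were GNRH2, PROK1, MUC13, APOA4, APOC3 and PLA2G2A, with log2 differences from 5.62 to 6.75. In WT H1 cells the 15 genes had 0 to 1.57 TPM in single samples, and in the EZH2-/-/EZH1-/- line 0 to 18.9 TPM, the highest for GNRH2.

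Most serum protein genes of yolk sac endoderm and liver were higher in SUZ12-/- H1 cells. Of 28 listed genes, 27 were tested, 17 were called higher (against 2.99% of all genes) and 0 lower, and in all 27 both SUZ12-/- samples lay above both EED-/- samples (against 26.8% of all genes). Their median log2 difference was 3.43, against -0.15 over all genes. AFP (chr4:73431138-73456174, GRCh38), the fetal albumin-like protein, was the most abundant at 13208 and 13695 TPM in SUZ12-/- H1 and 163 and 768 TPM in EED-/- H1 cells (log2 difference 5.25 ± 0.72, adjusted p = 0.00999). ALB (chr4:73397114-73421482), the adult counterpart at the neighbouring locus, was at 184 and 193 TPM in SUZ12-/- H1 and 2.06 and 4.38 TPM in EED-/- H1 cells (log2 difference 5.54 ± 0.29, adjusted p = 0.00177). SERPINA1, the inhibitor of neutrophil elastase, was at 1592 and 1623 TPM in SUZ12-/- H1 and 33.04 and 107 TPM in EED-/- H1 cells (log2 difference 4.73 ± 0.54, adjusted p = 0.00661). In all 3 genes the SUZ12-/- samples lay close together, while the second EED-/- sample was above the first. The same order of the EED-/- samples held for FGA, the fibrinogen alpha chain, with 396 and 412 against 10.7 and 35.04 TPM. APOB, the structural apolipoprotein of large lipoproteins, was at 191 and 201 against 29.1 and 39.6 TPM, and MTTP, which loads lipid onto it, at 59.6 and 61.2 against 3.98 and 2.89 TPM. The remaining called members were AHSG, APOA4, APOC3, AMBP, APOM, TF, APOH, HPX, F2, VTN and ITIH2, the last with the smallest log2 difference, 2.03.

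Of the 10 members that were not called, 7 were abundant in SUZ12-/- H1 cells, and APOC2, SERPINA3 and GC were below 7 TPM in all 4 samples. FGB, the fibrinogen beta chain, was at 1003 and 1022 against 6.75 and 84.8 TPM (log2 difference 5.297 ± 1.104, adjusted p = 0.0267). FGG, the gamma chain, was at 576 and 551 against 2.69 and 33.8 TPM (log2 difference 5.64 ± 1.03, adjusted p = 0.0193). Both estimates were as large as those of called genes, and the EED-/- samples were far apart, as they were for RBP4 (499 and 492 against 8.7 and 64.02 TPM). TTR, which carries thyroid hormone and retinol-binding protein, was already high in EED-/- H1 cells, at 2997 and 3079.8 against 535 and 1694 TPM, as were APOA1 (3036 and 3267 against 561 and 1081 TPM) and APOA2 (675 and 701 against 107 and 327 TPM). APOE, a lipid carrier of many cell types, was at 1919 and 2009 against 1186 and 1676 TPM and at 859 and 1033 TPM in WT H1 cells. EZH2-/-/EZH1-/- H1 cells had 201 and 183 TPM of AFP, 1.91 and 1.37 TPM of ALB and 1369 and 1746 TPM of TTR, all below SUZ12-/- H1 cells. In these bulk samples a larger share of cells making a serum protein and more of its RNA per cell cannot be told apart.

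Of 21 endoderm transcription factors tested, 2 were called higher (against 2.99% of all genes) and 0 lower (against 1.92%), and the median log2 difference was 0.18. CEBPA, a regulator of hepatocyte and myeloid genes, was at 28.01 and 30.6 TPM in SUZ12-/- H1 and 2.84 and 4.79 TPM in EED-/- H1 cells (log2 difference 2.68 ± 0.25, adjusted p = 0.00429). NR1H4, the bile acid receptor FXR, was at 7.34 and 6.94 TPM in SUZ12-/- H1 cells and was listed at 0 in both EED-/- samples, both WT H1 samples and both EZH2-/-/EZH1-/- samples. HNF4A, a central factor of liver and visceral endoderm, was at 25.8 and 26.7 against 19.9 and 24.3 TPM, and GATA4 at 68.7 and 69.3 against 103 and 98.1 TPM, higher and lower in SUZ12-/- H1 cells by estimate and neither called. SOX17, a factor of early endoderm, was at 15.9 and 15.4 against 37.1 and 44.9 TPM with a log2 difference of -1.32, and FOXA1, a pioneer factor of gut endoderm, was at 21.3 and 20.3 against 6.29 and 11.1 TPM with a log2 difference of 1.21. Both were below the fold change of 3. WT H1 cells had 0.07 and 0 TPM of HNF4A and 0.13 and 0.16 TPM of GATA4.

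Among 24 epithelial genes, 1 was called in each direction, near the 2.99% of all genes called higher and 1.92% called lower, and the median log2 difference of -0.14 was close to that of all genes. CLDN3, a tight junction claudin, was at 19.1 and 19.99 TPM in SUZ12-/- H1 and 3.98 and 5.65 TPM in EED-/- H1 cells, and KRT7, a keratin of simple and ductal epithelia, at 48.9 and 55.03 TPM in SUZ12-/- H1 and 256 and 383 TPM in EED-/- H1 cells. KRT8 had 1781 and 1832 against 2703 and 5680.2 TPM, so its 2 EED-/- samples differed from each other by more than the lower of them differed from SUZ12-/- H1 cells.

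**Figure D3:**
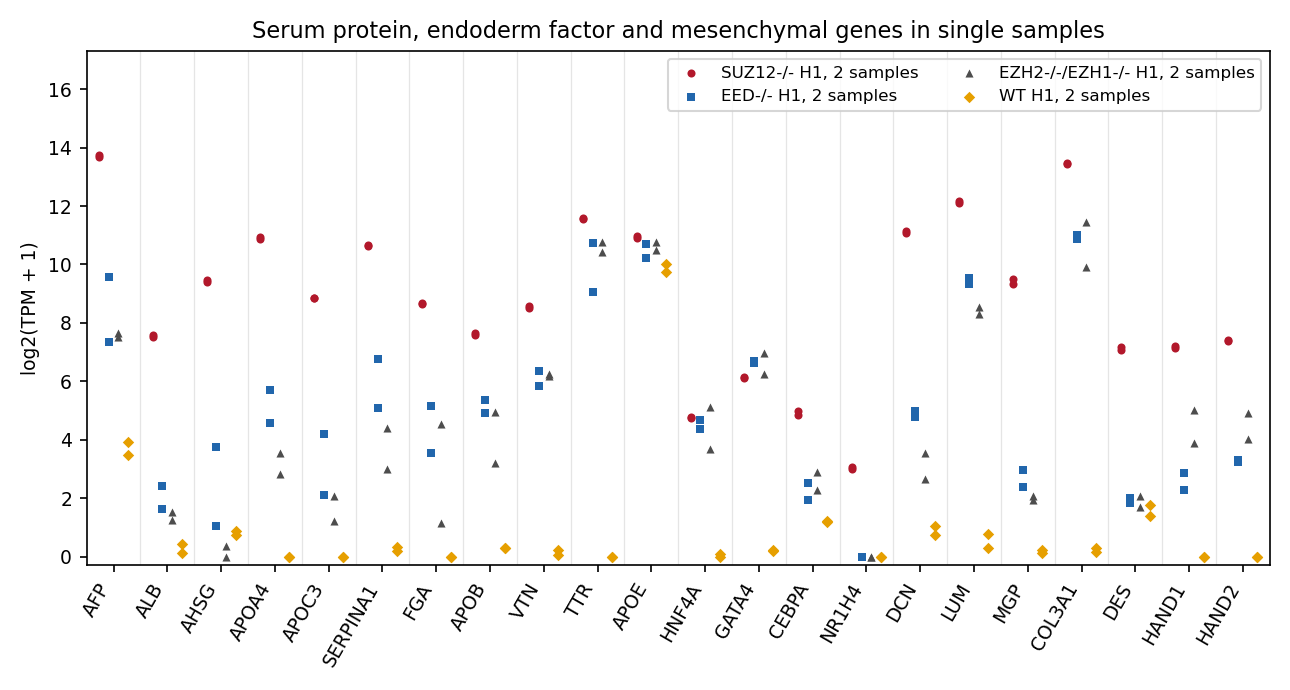
log2(TPM + 1) (y axis) of 22 serum protein, endoderm factor and mesenchymal genes (x axis) in single samples, 2 per line: SUZ12-/- (red circles), EED-/- (blue squares), EZH2-/-/EZH1-/- (grey triangles) and WT H1 (orange diamonds). The red points stand above all others for AFP, ALB, AHSG, APOA4, DCN, MGP, DES, HAND1 and HAND2, while for HNF4A they overlap the EZH2-/-/EZH1-/- points and for GATA4 they are the lowest of the 3 knockout lines.

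Mesenchymal genes divided between the lines. Of 24 tested regulators and surface or matrix genes, 8 were called higher (against 2.99% of all genes) and 2 lower (against 1.92%) in SUZ12-/- H1 cells. Their median log2 difference was 0.73. The 8 included the regulators TWIST1 (53.5 and 54.7 against 14.7 and 19.5 TPM), PRRX1 (29.9 and 31.8 against 7.74 and 10.1 TPM), FOXF1 (25.04 and 27.9 against 8.61 and 6.37 TPM) and TCF21 (22.5 and 21.5 against 4 and 4.29 TPM). TCF21 marks visceral and epicardial fibroblast precursors and FOXF1 splanchnic mesoderm. The receptor PDGFRA was at 55.5 and 55.5 against 11.97 and 16.1 TPM, and the matrix proteoglycan LUM at 4637 and 4406 TPM in SUZ12-/- H1 and 739.64 and 646 TPM in EED-/- H1 cells (log2 difference 2.71 ± 0.13, adjusted p = 0.00152). S100A4, a calcium-binding protein of fibroblasts, stood at 581 and 627 against 63.4 and 61.9 TPM, and DCN completed the 8. CDH2 (N-cadherin) was lower in SUZ12-/- H1 cells, at 72.5 and 68.2 TPM in SUZ12-/- H1 and 556 and 439 TPM in EED-/- H1 cells (log2 difference -2.79 ± 0.15, adjusted p = 0.00177), as was FOXC2, a regulator of paraxial and vascular mesoderm, at 1.33 and 1.78 against 15.2 and 13.1 TPM. FN1 (fibronectin), abundant in both lines, was at 4382 and 4324 against 11338 and 11452 TPM and was not called, nor was VIM (vimentin) at 3384 and 3354 against 8087 and 5399.8 TPM. WT H1 cells had 50.5 and 60.4 TPM of FN1 and 0.22 and 0.69 TPM of LUM.

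Collagens were called in both directions. Of 21 tested, 2 were higher (against 2.99% of all genes) and 2 lower (against 1.92%) in SUZ12-/- H1 cells, with a median log2 difference of 0.34. COL3A1, a fibrillar collagen of loose connective tissue, was at 11279 and 11055 TPM in SUZ12-/- H1 and 2070.1 and 1873 TPM in EED-/- H1 cells (log2 difference 2.503 ± 0.13, adjusted p = 0.00163), and COL14A1, which associates with fibrils, at 124 and 128 against 23.8 and 15.5 TPM. In the opposite direction were COL11A1, a fibrillar collagen of cartilage (118 and 137 against 417 and 661 TPM), and COL18A1, a basement membrane collagen, at 278 and 266 TPM in SUZ12-/- H1 and 880 and 842 TPM in EED-/- H1 cells (log2 difference -1.66 ± 0.104, adjusted p = 0.00211). The main basement membrane chains were not called, COL4A1 at 894 and 876 against 2946 and 2104 TPM and COL4A2 at 843 and 832 against 3032 and 1855 TPM. COL1A1 was at 2397 and 2397 against 4901 and 1813 TPM, with the SUZ12-/- samples between the 2 EED-/- samples.

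Contractile genes were called in both directions. Of 18 tested smooth muscle genes, 2 were called lower (against 1.92% of all genes) and 1 higher (against 2.99%) in SUZ12-/- H1 cells, and in 12 both SUZ12-/- samples lay below both EED-/- samples (against 44.0% of all genes). The median log2 difference was -0.96. TAGLN (SM22), an actin-binding protein of smooth muscle, was at 667 and 675 TPM in SUZ12-/- H1 and 3355 and 3779 TPM in EED-/- H1 cells (log2 difference -2.41 ± 0.12, adjusted p = 0.00163). CNN1 (calponin) was at 23.98 and 21.4 against 102 and 104 TPM. The tropomyosin gene TPM1 (941 and 959 against 2547 and 2957 TPM) and the smooth muscle actin gene ACTA2 (326 and 334 against 614 and 658 TPM) had lower values in both SUZ12-/- samples than in either EED-/- sample without being called. The higher gene was DES, the muscle intermediate filament desmin, at 133 and 144 TPM in SUZ12-/- H1 and 2.59 and 3.01 TPM in EED-/- H1 cells (log2 difference 5.2 ± 0.15, adjusted p = 0.00119), with 2.21 and 3.2 TPM in EZH2-/-/EZH1-/- H1 cells and 2.44 and 1.59 TPM in WT H1 cells. MYH11, the smooth muscle myosin heavy chain, was below 2 TPM in all 4 samples.

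Cardiac mesoderm genes were called in both directions too. Of 20 tested, 3 were higher (against 2.99% of all genes) and 2 lower (against 1.92%) in SUZ12-/- H1 cells, with a median log2 difference of 0.30. The 3 were transcription factors: HAND1 at 139 and 147 TPM in SUZ12-/- H1 and 3.85 and 6.25 TPM in EED-/- H1 cells (log2 difference 4.599 ± 0.23, adjusted p = 0.00163), HAND2 at 167 and 170.11 TPM in SUZ12-/- H1 and 8.93 and 8.46 TPM in EED-/- H1 cells (log2 difference 4.13 ± 0.12, adjusted p = 0.00119), and TBX20 at 22.4 and 21.4 against 3.57 and 3.81 TPM. HAND1 and HAND2 also act outside the heart, in extraembryonic and lateral mesoderm. The 2 lower genes were MYL7, the atrial myosin light chain, at 14.5 and 9.46 TPM in SUZ12-/- H1 and 210.08 and 375 TPM in EED-/- H1 cells (log2 difference -4.46 ± 0.34, adjusted p = 0.00276), and NPPB, a natriuretic peptide, at 16.8 and 14.4 TPM in SUZ12-/- H1 and 247 and 438 TPM in EED-/- H1 cells (log2 difference -4.32 ± 0.29, adjusted p = 0.00235). EZH2-/-/EZH1-/- H1 cells had 371 and 579 TPM of MYL7 and 634 and 742 TPM of NPPB. The cardiac myosin heavy chains MYH6 and MYH7 were below 1 TPM in all 4 samples and were not tested.

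The endothelial genes that were called were all higher in EED-/- H1 cells. Of 27 tested, 8 were called lower and 0 higher in SUZ12-/- H1 cells, against 1.92% of all genes called lower, and in 20 both SUZ12-/- samples lay below both EED-/- samples, against 44.0% of all genes. The median log2 difference was -1.26. CDH5, the cadherin of endothelial junctions, was at 23.7 and 19.04 TPM in SUZ12-/- H1 and 146 and 90.1 TPM in EED-/- H1 cells (log2 difference -2.38 ± 0.26, adjusted p = 0.00612), and PECAM1, an adhesion receptor of the same junctions, at 25.5 and 20.98 TPM in SUZ12-/- H1 and 153 and 85.2 TPM in EED-/- H1 cells (log2 difference -2.26 ± 0.302, adjusted p = 0.00946). ROBO4, a receptor that stabilises vessels, was at 2.55 and 1.81 TPM in SUZ12-/- H1 and 47.05 and 22.6 TPM in EED-/- H1 cells (log2 difference -3.42 ± 0.38, adjusted p = 0.00635). In each of the 3 the first EED-/- sample was above the second, the reverse of their order for AFP and SERPINA1. The other called genes were STAB1 (9.95 and 14.2 against 90.95 and 63.5 TPM), MMRN1, MMRN2, LYVE1 and ESAM (27.8 and 24.3 against 96.3 and 95.6 TPM). FLT1, a receptor for VEGFA, was at 114 and 109.57 against 259 and 276 TPM, VWF, a clotting factor of endothelium, at 7.36 and 6.24 against 39.1 and 22.8 TPM, and CD34, a surface protein of vessels and blood progenitors, at 35.3 and 33.04 against 156 and 74.5 TPM, each lower by estimate and not called. WT H1 cells had 0.95 and 0.43 TPM of CDH5 and 0.21 and 0 TPM of PECAM1. Of the 25 blood genes, 18 were below the filter, the globins, PTPRC (CD45) and SPI1 among them. Of the 7 tested, 1 was called lower (against 1.92% of all genes) and 0 higher (against 2.99%). It was LMO2, a factor shared by blood and endothelial progenitors, at 13.2 and 12.8 TPM in SUZ12-/- H1 and 40 and 50.5 TPM in EED-/- H1 cells (log2 difference -1.71 ± 0.17, adjusted p = 0.00476). RUNX1 was at 12.1 and 13.5 against 52.9 and 33.1 TPM and TAL1 at 5.34 and 5.77 against 8.68 and 7.42 TPM.

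The genes furthest below EED-/- H1 cells included further vascular genes. ESM1, a proteoglycan secreted by endothelial tip cells, was at 2.33 and 1.45 TPM in SUZ12-/- H1 and 141 and 71.9 TPM in EED-/- H1 cells (log2 difference -5.15 ± 0.37, adjusted p = 0.00245). APLN, the peptide ligand apelin, was at 3.62 and 1.5 TPM in SUZ12-/- H1 and 153 and 56.1 TPM in EED-/- H1 cells (log2 difference -4.79 ± 0.55, adjusted p = 0.00681), ANGPT2, a ligand of the receptor TEK, at 5.32 and 4.42 against 91.8 and 58.3 TPM, and EDN1, the vasoconstrictor endothelin, at 16.6 and 15.6 against 235 and 200.08 TPM. For ESM1, APLN and ANGPT2 the EZH2-/-/EZH1-/- samples stood between the lines, ESM1 at 16.3 and 11.1 TPM, APLN at 21.96 and 13 TPM and ANGPT2 at 17.01 and 10.7 TPM. ACTA1, the skeletal muscle actin, was at 4.32 and 3.67 against 95.97 and 129.78 TPM, and ALDH1A3, which makes retinoic acid, at 9.26 and 8.55 against 123 and 135 TPM. MSMP, MARCH4 and JAKMIP2-AS1 were at or below 1 TPM in SUZ12-/- H1 cells and between 10.63 and 25.05 TPM in EED-/- H1 cells. HIST2H2AA3, listed at 0 in both SUZ12-/- samples and at 36.1 and 28.5 TPM in EED-/- H1 cells, is uncertain: its near-identical copy HIST2H2AA4 was listed at 25.98 and 36.2 TPM in SUZ12-/- H1 cells and at 0 in EED-/- H1 cells, so the reads of the pair may have been divided between them differently. MYL7, NPPB, CER1 and CDKN2B were also among the 15.

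**Figure D4:**
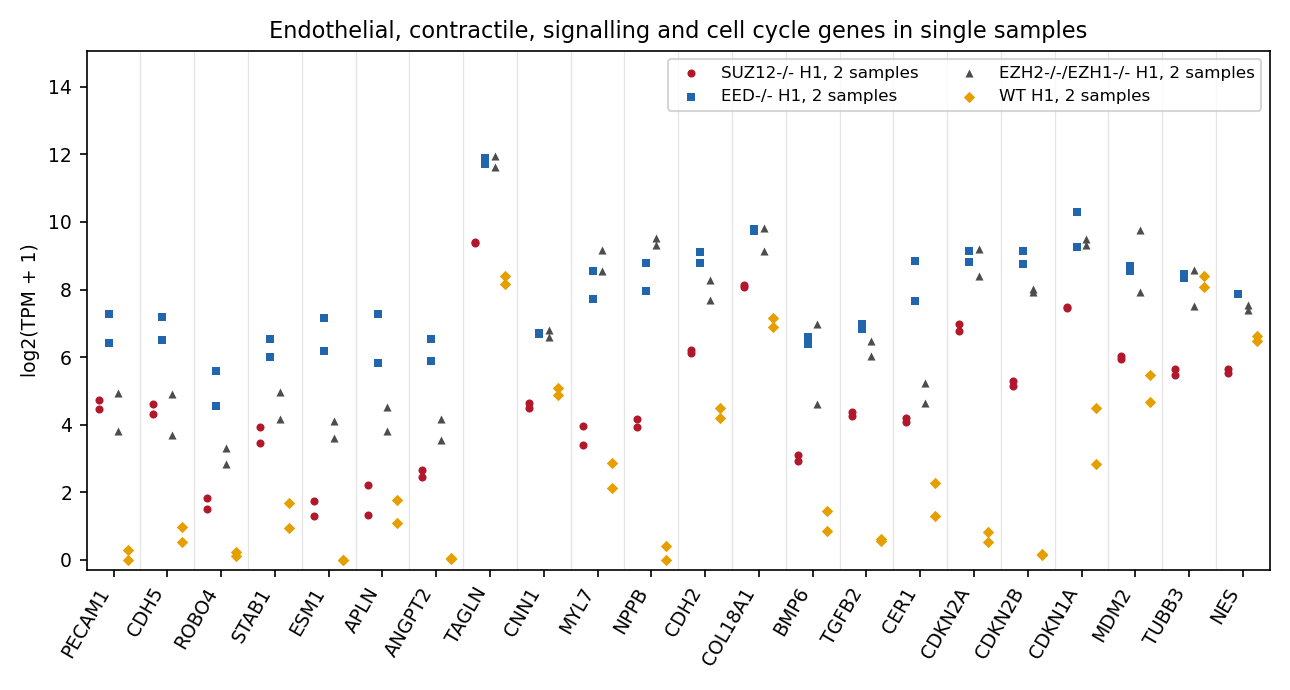
log2(TPM + 1) (y axis) of 22 endothelial, contractile, signalling and cell cycle genes (x axis) in single samples, 2 per line, with the lines marked as SUZ12-/- (red circles), EED-/- (blue squares), EZH2-/-/EZH1-/- (grey triangles) and WT H1 (orange diamonds). The blue points stand above the red points for all 22 genes, and the grey triangles lie with the blue squares for TAGLN, CNN1, MYL7, NPPB and CDKN1A but lower for CDH5, ESM1 and CER1.

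Of 14 CDK inhibitors and senescence-linked genes, 5 were called lower (against 1.92% of all genes) and 1 higher (against 2.99%) in SUZ12-/- H1 cells. The median log2 difference was -1.26. CDKN2B (chr9:22002903-22009305), which encodes p15, was at 38.3 and 34.1 TPM in SUZ12-/- H1 and 562 and 428 TPM in EED-/- H1 cells (log2 difference -3.73 ± 0.17, adjusted p = 0.00148), and its neighbour CDKN2A (chr9:21967752-21995301), which encodes p16 and p14ARF, at 109 and 126 TPM in SUZ12-/- H1 and 563 and 445 TPM in EED-/- H1 cells (log2 difference -2.08 ± 0.16, adjusted p = 0.00276). WT H1 cells had 0.13 and 0.1 TPM of CDKN2B and 0.44 and 0.77 TPM of CDKN2A, below all 4 knockout samples. The antisense transcript CDKN2B-AS1 was at 3.84 and 2.77 against 33.05 and 47.01 TPM, and since counting by strand is not stated, its reads and those of CDKN2B cannot be told apart where they overlap. MDM2, a ubiquitin ligase, was at 64.8 and 60.04 TPM in SUZ12-/- H1 and 414 and 371 TPM in EED-/- H1 cells (log2 difference -2.63 ± 0.11, adjusted p = 0.00148), and GADD45A, a damage-response gene, at 50.2 and 49.7 against 215 and 178 TPM. CDKN1A (p21) was at 179 and 175 against 1246 and 606 TPM, with a log2 difference of -2.29 ± 0.34, adjusted p = 0.0125, which missed the FDR of 1%; the EED-/- samples were far apart. The gene called higher was the imprinted inhibitor CDKN1C (p57), at 577 and 556 TPM in SUZ12-/- H1 and 59.4 and 69.5 TPM in EED-/- H1 cells (log2 difference 3.12 ± 0.12, adjusted p = 0.00132).

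Of 24 replication and mitosis genes tested, limma called 0 higher (against 2.99% of all genes) and 0 lower (against 1.92%). In 17 both SUZ12-/- samples lay above both EED-/- samples (against 26.8% of all genes), and the median log2 difference was 0.65. TOP2A, a topoisomerase of dividing cells, was at 40.2 and 36.6 against 6.79 and 12.9 TPM (log2 difference 1.92 ± 0.303, adjusted p = 0.0138). CDK1, the mitotic kinase, was at 49.2 and 43.1 against 10.9 and 19.8 TPM (log2 difference 1.58 ± 0.29, adjusted p = 0.0197). CCNE1 (cyclin E1) passed the FDR at 38.8 and 43.99 against 13.2 and 16.3 TPM but not the fold change. PCNA, the replication clamp, had the lower values in SUZ12-/- H1 cells, at 88.6 and 81.7 against 149.71 and 138 TPM. WT H1 cells had 149.54 and 152 TPM of TOP2A and 103 and 87.8 TPM of CDK1, above both lines. Among 15 stress and immediate early genes, 2 were called higher (against 2.99% of all genes) and 1 lower (against 1.92%) in SUZ12-/- H1 cells. FOS (441 and 431 against 144 and 129.72 TPM) and JUNB (172 and 172 against 52.9 and 37.96 TPM) were higher. HMOX1, a haem oxygenase induced by oxidative stress (27.3 and 27.3 against 142 and 182 TPM), was lower.

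Ligands of the TGF-beta superfamily were lower in SUZ12-/- H1 cells where they were called, apart from GDF10. Of 21 tested BMP and TGF-beta ligands, 4 were called lower (against 1.92% of all genes) and 1 higher (against 2.99%), with a median log2 difference of -0.64. BMP6 was at 7.57 and 6.64 TPM in SUZ12-/- H1 and 94.8 and 82.8 TPM in EED-/- H1 cells (log2 difference -3.47 ± 0.15, adjusted p = 0.00148), TGFB2 at 19.6 and 17.99 TPM in SUZ12-/- H1 and 113 and 124 TPM in EED-/- H1 cells (log2 difference -2.59 ± 0.13, adjusted p = 0.00162), and GDF15, a stress-induced member, at 99.1 and 104 against 595 and 422 TPM. NODAL, a ligand that induces mesendoderm, was at 10.5 and 10 TPM in SUZ12-/- H1 and 34.2 and 38.1 TPM in EED-/- H1 cells (log2 difference -1.72 ± 0.15, adjusted p = 0.00339) and at 12.3 and 8.16 TPM in WT H1 cells. GDF10 was at 16.3 and 15.5 against 2.7 and 1.64 TPM. BMP4 was high in both lines, at 139 and 135 TPM in SUZ12-/- H1 and 92.5 and 207 TPM in EED-/- H1 cells, with the SUZ12-/- samples between the 2 EED-/- samples. INHBA, the activin A subunit, was at 11.5 and 9.84 against 199.78 and 70.95 TPM and missed the FDR (log2 difference -3.37 ± 0.49, adjusted p = 0.0115). Of 21 antagonists and targets of BMP signalling, 3 were called lower (against 1.92% of all genes) and 0 higher (against 2.99%). All 3 were secreted antagonists: CER1 at 17.5 and 15.8 TPM in SUZ12-/- H1 and 463 and 203 TPM in EED-/- H1 cells (log2 difference -4.13 ± 0.39, adjusted p = 0.00439), FST (follistatin) at 73.9 and 73.04 against 477 and 324 TPM and GREM1 (gremlin) at 52.5 and 56.2 against 215 and 146 TPM. ID2, a direct BMP target, had 255 and 259 against 46.4 and 111 TPM and was not called, and the median of the list was 0.28.

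Of 28 WNT ligands and modulators tested, 4 were called higher (against 2.99% of all genes) and 1 lower (against 1.92%) in SUZ12-/- H1 cells. The median log2 difference was 0.08. RSPO2, an R-spondin that amplifies WNT signals, was at 102 and 102 TPM in SUZ12-/- H1 and 3.28 and 1.29 TPM in EED-/- H1 cells (log2 difference 5.04 ± 0.32, adjusted p = 0.00216). The other 3 encode secreted frizzled-related antagonists: SFRP5 at 34.1 and 38.1 against 3.03 and 3.97 TPM, SFRP2 at 55.8 and 46.3 against 10.4 and 10.97 TPM and FRZB at 333 and 328 against 75.3 and 79.2 TPM. DKK3 was at 87.9 and 73.8 against 459 and 294 TPM. None of the WNT ligands themselves was called.

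The IGF axis held some of the most abundant transcripts that differed. Of 13 tested, 2 were called higher (against 2.99% of all genes) and 3 lower (against 1.92%), with a median log2 difference of -1.03. IGF2 (chr11:2129112-2158391), a fetal growth factor expressed from the paternal allele, was at 3207 and 3285 TPM in SUZ12-/- H1 and 368 and 539.8 TPM in EED-/- H1 cells (log2 difference 2.86 ± 0.205, adjusted p = 0.00249) and at 0.38 and 0.27 TPM in WT H1 cells. IGFBP3, the main circulating IGF carrier, was at 2439 and 2515 TPM in SUZ12-/- H1 and 374 and 394 TPM in EED-/- H1 cells (log2 difference 2.69 ± 0.11, adjusted p = 0.00132). IGF1 (9.9 and 10.02 against 35.2 and 54.5 TPM), IGFBP6 (34.6 and 37.1 against 134 and 215 TPM) and the receptor IGF1R (22.7 and 23.1 against 93.3 and 70.4 TPM) were lower in SUZ12-/- H1 cells. H19 (chr11:1995166-2004552), the maternally expressed non-coding RNA beside IGF2, was at 7135 and 7399.9 TPM in SUZ12-/- H1 and 488 and 0.27 TPM in EED-/- H1 cells. The 2 EED-/- samples lay so far apart that a log2 difference of 8.19 ± 2.73 (SE) was not called (adjusted p = 0.0812).

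Of 20 pluripotency regulators tested, 2 were called higher (against 2.99% of all genes) and 1 lower (against 1.92%) in SUZ12-/- H1 cells. The median log2 difference was -0.21. POU5F1 (OCT4) was at 91.04 and 47.03 TPM in SUZ12-/- H1 and 5.27 and 3.62 TPM in EED-/- H1 cells (log2 difference 3.63 ± 0.36, adjusted p = 0.00481), against 2531 and 2428 TPM in WT H1 and 123 and 149.79 TPM in EZH2-/-/EZH1-/- H1 cells. L1TD1, an RNA-binding protein of hESCs, was at 42.9 and 31.4 against 7.47 and 10.2 TPM and at 557 and 634 TPM in WT H1 cells. NODAL, described above, was the gene called lower. NANOG had 5.31 and 3.36 against 0.6 and 0.37 TPM with a log2 difference of 1.82 ± 0.29, adjusted p = 0.0145, whereas SOX2 had 10.3 and 9.17 against 22.6 and 16.1 TPM and LIN28A 47.2 and 40.4 against 49.02 and 184 TPM, with the lower values in SUZ12-/- H1 cells. DNMT3B was at 24.9 and 13.2 against 30.9 and 19.6 TPM, and at 846 and 840.39 TPM in WT H1 cells. The cell type of the labels, hESC, is that of the parent line. POU5F1, L1TD1 and DNMT3B were far below WT levels in all 4 samples. NODAL, of the same list, was near its WT level in SUZ12-/- and above it in EED-/- H1 cells. The other members are not set against WT here.

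Genes of other lineages differed in places. Of 15 neural ectoderm genes tested, 1 was called higher (against 2.99% of all genes) and 2 lower (against 1.92%) in SUZ12-/- H1 cells. The median log2 difference was -0.79. The 2 lower genes were the neuronal tubulin TUBB3 (49.4 and 43.05 TPM in SUZ12-/- H1 and 325 and 352 TPM in EED-/- H1 cells, log2 difference -2.85 ± 0.12, adjusted p = 0.00148) and the intermediate filament NES (49.2 and 45.6 against 234 and 232 TPM), with 269 and 340.26 TPM of TUBB3 and 97.8 and 87.9 TPM of NES in WT H1 cells. PAX6 had 7.94 and 5.66 against 129 and 50.03 TPM and fell just outside the FDR (adjusted p = 0.0101). SOX1, HES5 and NEUROG1 were below 1 TPM in all 4 samples. Of 19 trophoblast and amnion markers tested, 5 were called higher (against 2.99% of all genes) and 1 lower (against 1.92%), with a median log2 difference of 0.78. The 5 were HAND1, GABRP (234 and 238 against 12 and 9.98 TPM), XAGE2 (19.8 and 23.4 against 0 and 0.83 TPM), VTCN1 (34.4 and 31.2 against 2.75 and 6.46 TPM) and IGFBP3, and the lower gene was KRT7. GABRP was also at 246 and 288 TPM in WT H1 cells. Among 13 intermediate mesoderm and kidney factors, 2 were called higher (against 2.99% of all genes) and 1 lower (against 1.92%). OSR1 (20.9 and 25.3 against 3.42 and 4.97 TPM) and OSR2 (19.6 and 14.8 against 3.97 and 4.1 TPM) were higher. LHX1 (2.39 and 3.06 TPM in SUZ12-/- H1 and 28.6 and 26.5 TPM in EED-/- H1 cells, log2 difference -2.94 ± 0.195, adjusted p = 0.00225) was lower.

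Of 36 HOX genes tested, 10 anterior, 10 central and 16 posterior, 0 were called higher and 1 was called lower in SUZ12-/- H1 cells, near the 1.92% of all genes called lower. This was HOXB8 at 9.42 and 10.7 TPM in SUZ12-/- H1 and 40.1 and 36.03 TPM in EED-/- H1 cells (log2 difference -1.82 ± 0.16, adjusted p = 0.00336), which was listed at 0 in both WT H1 samples. The median log2 differences were -0.52 for the anterior, -0.82 for the central and -0.497 for the posterior genes.

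WT H1 and EZH2-/-/EZH1-/- H1 cells give a reference for the called genes. Folds in this paragraph are between means of log2(TPM + 1), so a gene near 0 TPM in WT can rise and still count as within 3-fold. FABP1, at 0.53 and 5.26 TPM in EED-/- H1 and 0.21 and 0 TPM in WT H1 cells, counted as within 3-fold. Of the 522 genes higher in SUZ12-/- H1 cells, 329 were at least 3-fold above the WT mean in SUZ12-/- H1 cells and within 3-fold of it in EED-/- H1 cells. A further 96 were above WT in both lines, and 44 were within 3-fold of WT in SUZ12-/- and at least 3-fold below it in EED-/- H1 cells. Of the 335 lower genes, 145 were at least 3-fold above WT in EED-/- H1 cells alone, 115 in both lines, and 24 were at least 3-fold below WT in SUZ12-/- H1 cells alone. Of all 17479 genes tested, 940 were above WT in SUZ12-/- alone, 1296 in EED-/- alone and 1948 in both. Below WT were 247 in SUZ12-/- alone and 374 in EED-/- alone. A call needs a 3-fold difference between the lines, which by itself favours classes that set them apart. The mean of the EZH2-/-/EZH1-/- samples was nearer to the EED-/- mean than to the SUZ12-/- mean for 498 of the 522 higher genes (95.4%) and for 233 of the 335 lower genes (69.6%), against 53.8% of all genes tested. These counts are descriptions without a test, and the 3 lines are compared through the same EED-/- and SUZ12-/- samples that gave the calls.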

How the data were processed

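The study's methods give TruSeq RNA libraries and RSEM with Bowtie2 against human mRNA sequences of GRCh38; use of strand in counting is not stated. The authors deposited 1 TPM value for each gene in each sample. TPM columns summed to between 999999.7 and 1000000.4 in the 4 samples, with 16454 to 17043 genes at 1 TPM or more, so depth is unknown and no counting interval is given. The test on counts that the authors describe could not be run, and its thresholds were kept.

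Files were joined by Ensembl identifier. Genes reaching 1 TPM in 2 or more of the 4 samples were tested on log2(TPM + 1) with limma 3.58.1 (R 4.3.3; lmFit, contrasts.fit, eBayes with trend and robust, 2 residual degrees of freedom), and p-values were adjusted by Benjamini-Hochberg over all 17479 genes. Fold changes on this scale understate those of low genes. The script was tested on simulated data. Gene lists (25), including 13 mitochondrially encoded mRNAs not analysed here, and the genes compared were chosen with earlier results of these data known. Named genes were the targeted genes, the 15 largest differences on either side, the called members of the lists, and the most abundant of the others, up to 6 per list. Named outside this rule, after their values were seen, were CCNE1, TOP2A, DNMT3B, NANOG, SOX2, FOXA1, VWF, CDKN2B-AS1, HIST2H2AA4, the untested genes, and those of the closing section. RBP4, APOC2, SERPINA3, GC and MYH11 were also named outside it. Replicate numbers follow the order of the samples and do not pair them. Alternatives were other pseudocounts, filters, scalings, samples in the fit, eBayes options and thresholds, a replicate block, and leaving out each sample. Coordinates are from GENCODE release 44 (GRCh38). Some genes of these lists and ranks are not reported here.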

Additional observations from a re-analysis of the deposited data

How the results depend on the processing

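The 522 higher and 335 lower calls became 365 and 291 with a pseudocount of 0.1, 467 and 239 without the trend and robust options, and 392 and 247 without a filter. Requiring 1 TPM in every sample gave 304 and 336 calls, with 14848 genes tested. Fitting 12 samples, with WT, EZH1-/-, EZH2-/- and EZH2-/-/EZH1-/- H1 added, gave 690 and 505. A fit of 6 samples, with EZH2-/-/EZH1-/- H1 added, gave 335 and 160, and median ratio scaling gave 608 and 230. An FDR of 5% without a fold change gave 2011 and 2973, and limma's treat against a fold change of 1.5 gave 278 and 176. The replicate block gave 568 and 437 calls, although same-numbered samples did not deviate together (correlation of deviations 0.0144). Leaving out 1 sample gave 0 to 947 higher and 0 to 891 lower calls. A lone sample is then assumed to vary like the other line. The count of genes with every sample 3-fold apart (569 and 323) was added after the data had been seen. The 124 called genes followed through the alternatives kept their direction wherever they were tested. Their samples did not overlap between the lines, so only the median ratio scaling could have reversed one. Of the 124 calls, 35 were lost in the fit of 6 samples, 26 without the trend and robust options and 19 with a pseudocount of 0.1. Without a filter 17 were lost, with median ratio scaling 10 and in the fit of 12 samples 8. The replicate block kept all 124 calls and made 7 of 43 others pass. Leaving out either SUZ12-/- sample lost these calls, since the spread then came from the EED-/- pair. The log2 difference changed sign for genes that were not called. It was 0.111 for SUZ12, 0.035 for EZH1 and 0.191 for BMP4 with median ratio scaling. Leaving out 1 sample, it ran from -0.219 to 0.039 for SUZ12, -0.412 to 0.089 for EZH1, -1.031 to 0.403 for COL1A1, -0.851 to 0.014 for DNMT3B and -0.595 to 0.560 for BMP4. The cause of the other changes was not tested. The list medians of pluripotency, endoderm factor, epithelial, collagen, cardiac, WNT and PRC2 genes changed sign under at least 1 alternative. Depth is unknown, and with 2 samples per line the spread of single genes is poorly known.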

Other observations

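Further called genes were picked after their values had been seen, and they stand for themselves and not for a pathway or cell type. The complement genes C3, CFB and CFI were higher in SUZ12-/- H1 cells, with C3 at 78.4 and 83.02 against 2.74 and 1.13 TPM, CFB at 88.96 and 99.4 against 0.76 and 1.64 TPM and CFI at 106 and 109.67 against 1.89 and 5.25 TPM in SUZ12-/- and EED-/- samples, in that order. Also higher were the brush border protease MEP1A at 60.8 and 67.03 against 0.19 and 1.72 TPM, the guanylin receptor GUCY2C at 24.3 and 21.3 against 0.43 and 0.9 TPM and the intestinal homeobox gene CDX1 at 21.9 and 20.9 against 2.82 and 3.55 TPM. So were SST (somatostatin) at 95.3 and 98.3 against 0.47 and 2.48 TPM, the secretory granule protein CHGA at 104 and 114 against 1.54 and 1.27 TPM and the transcription factor NEUROD1 at 6.07 and 6.82 against 0 and 0.06 TPM. SST was also at 32.97 and 27.1 TPM in EZH2-/-/EZH1-/- H1 cells. DLK1, an imprinted inhibitor of Notch signalling, was at 3771 and 3834 against 179.93 and 98.96 TPM.

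In the other direction, some genes were higher in EED-/- H1 cells. The death receptor FAS was at 23.2 and 17.9 against 155 and 129 TPM. The known YAP targets CTGF and ANKRD1 were at 296 and 271 against 2543 and 2024 TPM and 69.8 and 55.6 against 572 and 706 TPM. H19 differed most between the 2 EED-/- samples among the genes named here, at 488 and 0.27 TPM, and was at 1121 TPM in the day 28 sample of the inducible EED knockout line without DOX.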
